A study of Rattus norvegicus with 5 samples.

Results

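The carriers described here move sodium, bicarbonate, phosphate, sulfate and related ions across the membranes of kidney cells. They were chosen by name, as the probe sets whose single gene symbol was Slc4a, Slc8a, Slc9a, Slc12a, Slc13a, Slc20a, Slc24a, Slc26a or Slc34a plus a number, without Slc4a1, Slc12a1 and Slc12a3. This gave 50 genes with 1 probe set each, of 14506 genes with a probe set of a single symbol and of 29215 probe sets in all.

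The samples were proximal tubular cells, the epithelium of the first nephron segment, from type I diabetic rats of the Sprague-Dawley strain. One group was exposed to C-peptide, the connecting peptide cleaved from proinsulin, for 2 h (3 arrays), and the other was left untreated for the same time (2 arrays). Diabetes, strain and tissue were shared by both groups, and within a group every array is labelled as a different animal. How the diabetes was brought about, the age of the rats, the peptide dose and any batch are not stated in the labels. Nor do they state whether animals of the same number in both groups are the same rat.

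In the proximal tubule, most filtered sodium, bicarbonate and phosphate is taken back into the blood. Apical sodium-proton exchange (Slc9a3, NHE3) and basolateral sodium-bicarbonate cotransport (Slc4a4, NBCe1) together reclaim bicarbonate. Slc34a1 and Slc34a3 carry phosphate, Slc13a1 carries sulfate and Slc13a2 carries citrate and other dicarboxylates in from the filtrate, while Slc26a1 passes sulfate out on the blood side. Other carriers of these families work in later segments, in intracellular compartments or in other organs.

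All values per array are intensities after quantile normalisation, on a linear scale, and differences are on the log2(intensity + 16) scale, C-peptide minus untreated, with the SE of the fit. Intensities of different probe sets are not read as relative amounts of their RNAs. They are only summed over gene lists, where bright probe sets weigh most, and set against the median probe set. Before normalisation, the array medians ranged from 60.1 to 95.9 in the C-peptide group and from 84.4 to 92.2 in the untreated group. Log2 values of all probe sets correlated at r = 0.970 to 0.982 between arrays of 1 group and at 0.958 to 0.982 between arrays of different groups. All 12 measured markers of the proximal tubule lay above the median probe set on every array, as did all 11 endothelial markers, 8 of 9 immune markers, 8 of 9 thick limb and distal markers, 8 of 9 collecting duct markers and 2 of 5 podocyte markers. None of these markers was listed at 0 on any array. Both criteria are broad. By the mean over arrays, 8565 of 14506 genes lay above the median probe set, and only 103 to 116 probe sets per array were at 0. Signal at markers of further cell types was measured beside that of the labelled one, without a threshold for detection. In such bulk samples, fewer cells of a type and less RNA per cell cannot be told apart.

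None of the 50 carriers passed adjusted p 0.05 in limma, where 0 of 29215 probe sets passed (0%). At unadjusted p under 0.05, 7 carriers were higher and 5 were lower with C-peptide. Those were 14.0% and 10% of the carriers, beside 5.06% of all probe sets higher and 6.30% lower. The 7 were Slc13a2, Slc26a1, Slc34a2, Slc9a3, Slc13a3, Slc12a8 and Slc9a8, and the 5 were Slc9a9, Slc12a4, Slc4a5, Slc4a7 and Slc12a2. In 13 of the 50 carriers the lowest C-peptide array exceeded the highest untreated array, against 16.1% of all probe sets, and in 5 of the 50 the order was the opposite, against 13.8%. The higher share was above that of the whole array and the lower share was below it. The median difference of the 50 was 0.10, beside 0.02 over all probe sets and 0.03 over all genes, and 37 of the 50 lay above 0 (74.0%), against 53.6% of probe sets.

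These counts depended on the scaling and on single arrays. In the values as deposited, where the median of all probe sets was shifted by -0.13, 2 carriers were higher (Slc13a2 and Slc26a1) and 2 lower (Slc9a9 and Slc12a4) at unadjusted p under 0.05, against 0.661% and 6.38% of probe sets. Groups without overlap then numbered 5 higher and 7 lower among the carriers, against 3.97% and 16.7% of probe sets. More carriers were then lower than higher, as over all probe sets. The higher share stayed above that of all probe sets and the lower share stayed below it. Leaving out 1 array changed the counts too. The higher count was 3 when C-peptide animal 3 was dropped. Over all probe sets, 1140 were then higher, against 1477 with all arrays. The lower count was 3 or fewer whichever array was dropped: 3 for C-peptide animal 1, 1 for untreated animal 1 and 2 for each of the other arrays. Of the 12 carriers at unadjusted p under 0.05, 10 lost it with at least 1 array dropped, and Slc13a2 and Slc9a9 did not. With an untreated array dropped, the spread comes from the C-peptide arrays alone, and the lone untreated array is assumed to vary like them. Slc13a2 and Slc9a9 passed adjusted p 0.05 in limma when dim probe sets were left out (adjusted p = 0.0296 and 0.0317) or when probe sets without exactly 1 symbol were left out (adjusted p = 0.0275 and 0.0327).

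**Figure D1:**
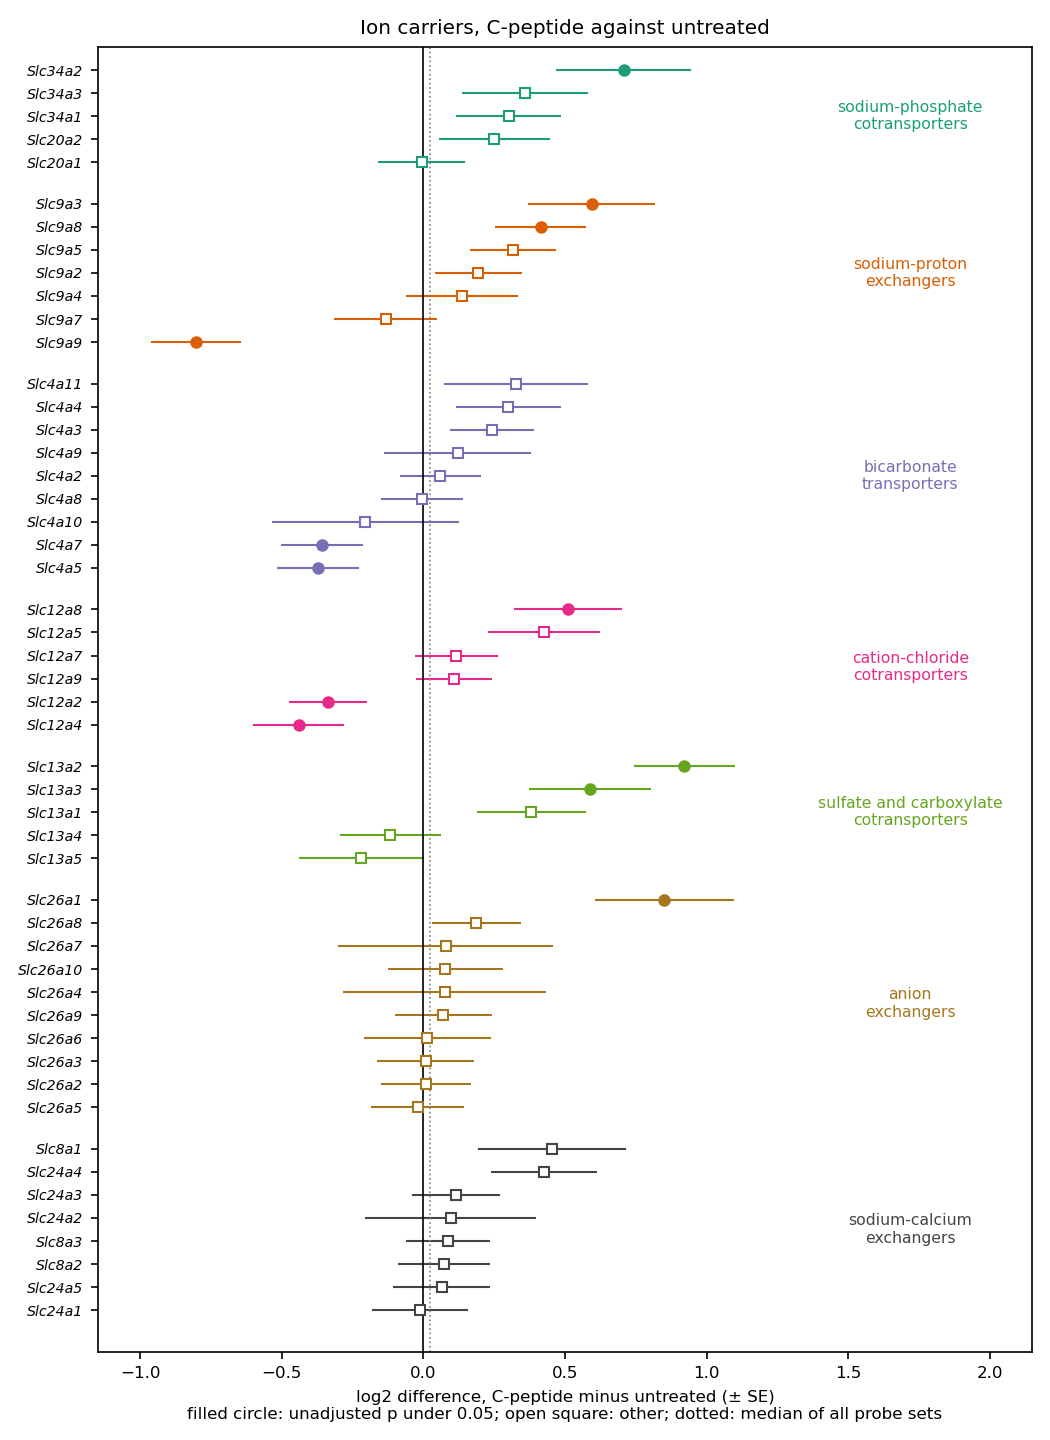
Log2 difference, C-peptide minus untreated, of each of the 50 carriers with its SE, grouped by family, with filled circles at unadjusted p under 0.05 and a dotted line at the median of all probe sets (0.02). The highest value is that of Slc13a2 (0.92) and the lowest that of Slc9a9 (-0.80).

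The carriers known from the proximal tubule were, with 1 exception, on the higher side. Of the 14 measured genes listed for this segment, 13 lay above 0 and the median difference was 0.33, or 0.34 in the values as deposited relative to the median of all probe sets. At unadjusted p under 0.05, 5 of the 14 were higher and none lower, against 5.06% and 6.30% of all probe sets. In 6 of the 14 the C-peptide arrays were higher without overlap, against 16.1% of all probe sets. In the values as deposited these counts were 2 (0.661% of all probe sets) and 3 (3.97%). The list was written with earlier results of these data known, so its direction is a description. The other 36 carriers had a median difference of 0.08, with 2 higher (5.56%, near the 5.06% of all probe sets) and 5 lower (13.9%, against 6.30%) at unadjusted p under 0.05. As deposited, none of the 36 was higher and 2 were lower, against 0.661% and 6.38% of all probe sets.

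The 12 proximal tubule markers that are not carriers of these families lay on the same side. All 12 lay above 0, with a median difference of 0.53, and 7 were higher at unadjusted p under 0.05, against 5.06% of all probe sets. Their summed intensity was 22208 to 29309 on the C-peptide arrays, against 16905 to 18966 on the untreated arrays. The summed intensity of the 14 carriers was 16123, 13867 and 18463 in C-peptide animals 1, 2 and 3, against 13748 and 11220.3 in untreated animals 1 and 2. C-peptide animal 3 was the highest and C-peptide animal 2 the lowest of the treated arrays in both sums. The part of this marker shift in the carriers' values was not tested.

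Most markers of cell types outside the tubule lay on the lower side. All 11 endothelial markers lay below 0, with a median difference of -1.14 and a summed intensity of 8698 to 13545 on C-peptide arrays, against 20758 to 24512 on untreated arrays. All 9 immune markers lay below 0, with a median of -0.49 and sums of 4599 to 6182 on C-peptide arrays, against 6592 to 7749.6 on untreated arrays. Cd74 made up most of each immune sum, at -0.38 with overlap. Of the 9, 8 were lower without overlap, against 13.8% of all probe sets. Podocyte markers had a median of -0.36 over 5 genes, 4 of them below 0, with sums of 1035 to 1629.7 on C-peptide arrays, against 2467 to 3112 on untreated arrays. Most of that sum was Podxl, which endothelial cells also hold, at -1.32. Synpo and Ptpro were at -0.65 and -0.36 without overlap, while Wt1 and Nphs1 were at -0.17 and 0.11 with overlap. Ptpro, Wt1 and Nphs1 were dimmer than the median probe set. Stromal and smooth muscle markers had a median of -0.30 over 7 genes, 5 of them below 0, with sums of 4599.8 to 4855 on C-peptide arrays, against 4862 to 5468 on untreated arrays. Acta2 made up most of each stromal sum, at a difference of -0.09 with overlap. Red blood cell markers overlapped, at sums of 2081 to 4661 on C-peptide arrays, against 2719.6 to 3746 on untreated arrays. Whether these shifts took part in the carriers' values was not tested.

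**Figure D2:**
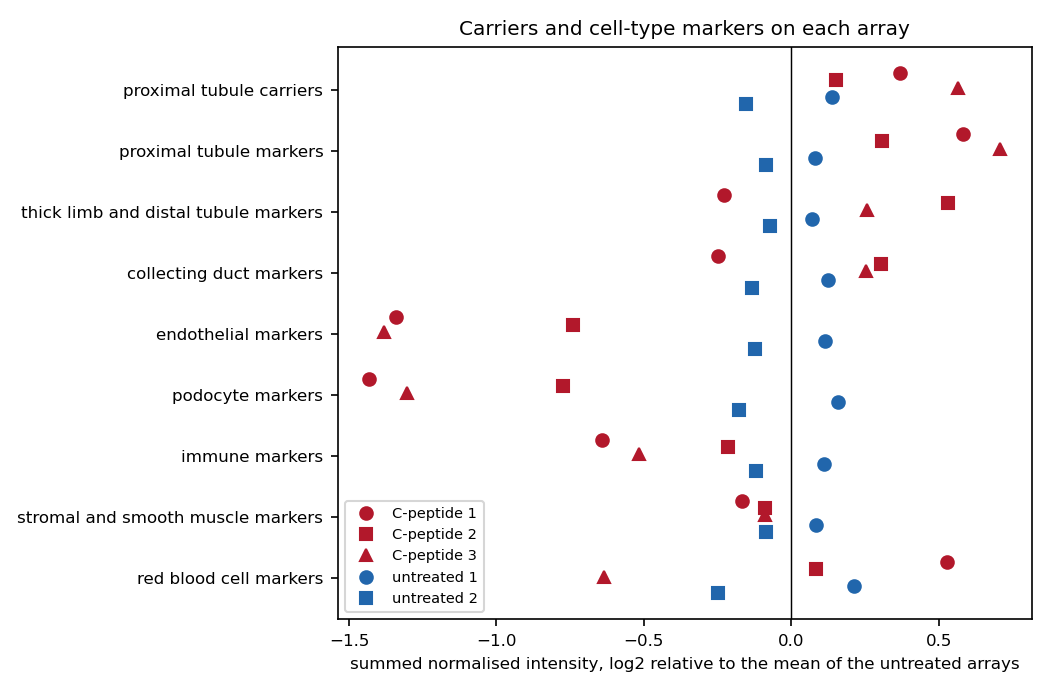
Summed normalised intensity of the 14 proximal tubule carriers and of each marker list on each array, as log2 relative to the mean of the untreated arrays, with C-peptide arrays in red and untreated arrays in blue. Proximal tubule markers lie higher on all 3 C-peptide arrays (22208 to 29309 against 16905 to 18966) and endothelial markers lower (8698 to 13545 against 20758 to 24512).

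Among the sodium-coupled sulfate and carboxylate carriers, Slc13a2 (NaDC1), which takes citrate and other Krebs cycle intermediates from the filtrate, had the highest difference of all 50. Its intensity was 382, 328 and 464 in the C-peptide group, against 209.9 and 185 in the untreated group. The groups did not overlap, and the lowest C-peptide array stood well above the higher untreated one. The fold on the log2(intensity + 16) scale was 1.89 (log2 difference 0.92 ± 0.18, 95% interval 0.50 to 1.34; limma unadjusted p = 0.00116, adjusted p = 0.141). It kept an unadjusted p under 0.05 in all 15 alternatives, at differences of 0.79 to 1.04 and adjusted p values of 0.0268 to 0.800, although these alternatives share most of their arrays.

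Slc13a3 (NaDC3), the basolateral dicarboxylate carrier that supplies the exchangers of organic anion secretion, had intensities of 1468, 1350.0 and 1971 in the C-peptide group, against 1209 and 898 in the untreated group. All C-peptide arrays were higher, though not in the values as deposited, and C-peptide animal 3 lay furthest from the rest. Its difference was 0.59 ± 0.21 (95% interval 0.09 to 1.09; limma adjusted p = 0.378), and 0.38 without untreated animal 2. Slc13a1 (NaS1), the apical sulfate carrier, had 2346, 2052 and 3044, against 1960.2 and 1797 in untreated cells. The groups did not overlap here but did in the values as deposited and with centred arrays. The difference was 0.38 ± 0.19 (95% interval -0.07 to 0.83; limma adjusted p = 0.509), and 0.22 without C-peptide animal 3. The last of the family, Slc13a4, a sulfate carrier best known from the placenta, and Slc13a5, a citrate carrier best known from the liver, were dimmer than the median probe set. Both overlapped between groups, at -0.12 ± 0.18 and -0.22 ± 0.22.

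Among the anion exchangers, Slc26a1 (SAT1), the basolateral sulfate exchanger of the proximal tubule, stood apart from the other 9. It had intensities of 659, 392 and 676 in the C-peptide group, against 306 and 299.9 in the untreated group. The untreated arrays lay close together, C-peptide animals 1 and 3 lay far above them, and C-peptide animal 2 lay between. The fold was 1.80 (log2 difference 0.85 ± 0.24, 95% interval 0.28 to 1.42; limma unadjusted p = 0.00954, adjusted p = 0.266). Slc26a6, an apical exchanger of chloride, oxalate and formate, had 36.2, 56.9 and 71.0 in C-peptide cells, against 49.6 and 55.6 in untreated cells. Its C-peptide arrays spread on both sides of the untreated ones, and the difference was 0.01 ± 0.22 with a 95% interval of -0.51 to 0.54.

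The other 8 anion exchangers had differences between -0.02 (Slc26a5, the motor protein prestin of outer hair cells) and 0.19 (Slc26a8, of sperm), and all overlapped between groups. Slc26a2, the sulfate carrier that cartilage depends on, was at 0.01 ± 0.16. Slc26a3, of the colon, was at 0.01 ± 0.17, Slc26a9, of stomach and airway, at 0.07 ± 0.17, and Slc26a10 at 0.08 ± 0.20. Slc26a4 and Slc26a7 are described with the later segments.

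The phosphate carriers lay on the higher side except Slc20a1, and only Slc34a2 reached an unadjusted p under 0.05. Slc34a1 (NaPi-IIa), the main phosphate carrier of the brush border, had intensities of 4726, 4398 and 5085 in C-peptide cells, against 4570.4 and 3218 in untreated cells. Untreated animal 1 fell inside the treated range and untreated animal 2 well below it. Its difference was 0.30 ± 0.19 (95% interval -0.13 to 0.74; limma adjusted p = 0.591), with 0.55 without untreated animal 1 and 0.05 without untreated animal 2, so that its size rested on which untreated array was kept.

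Slc34a3 (NaPi-IIc), the second brush border phosphate carrier of its family, had 927, 563 and 687 in C-peptide cells, against 602 and 505 in untreated cells. The groups overlapped through C-peptide animal 2, and the difference was 0.36 ± 0.22 (95% interval -0.16 to 0.88). It was 0.17 when C-peptide animal 1 was dropped, 0.52 (limma unadjusted p = 0.0479) when C-peptide animal 2 was dropped, and 0.23 when untreated animal 2 was dropped. Slc34a2 (NaPi-IIb), best known as the phosphate carrier of intestine and lung, had 129, 189 and 101 in C-peptide cells, against 83.7 and 70.4 in untreated cells. Its groups did not overlap here but did in the values as deposited, and C-peptide animal 2, low for most proximal carriers, was its highest array. The difference was 0.71 ± 0.24 (95% interval 0.15 to 1.27; limma adjusted p = 0.348).

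Slc20a1 (PiT-1), a phosphate carrier found in most cells, had 563, 521 and 616 in C-peptide cells, against 617 and 523 in untreated cells. Both groups covered nearly the same range, and the difference was -0.01 ± 0.15 with a 95% interval of -0.37 to 0.35. Slc20a2 (PiT-2), which the proximal brush border also carries, had 117, 169 and 179 in C-peptide cells, against 129.9 and 122 in untreated cells. C-peptide animal 1 lay below both untreated arrays and the other two above, at a difference of 0.25 ± 0.20. It was 0.42 (limma unadjusted p = 0.0226) without C-peptide animal 1 and 0.15 without C-peptide animal 3.

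Of the 7 sodium-proton exchangers, the apical proximal pair was higher and an endosomal one lower at unadjusted p under 0.05. Slc9a3 (NHE3) had intensities of 566, 516 and 817 in C-peptide cells, against 457 and 359.8 in untreated cells. The groups did not overlap here but did in the values as deposited, and C-peptide animal 3 was far above the other arrays. The fold was 1.51 (log2 difference 0.59 ± 0.22, 95% interval 0.07 to 1.12; limma adjusted p = 0.391), and the difference was 0.40 without C-peptide animal 3.

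Slc9a8 (NHE8), found in the proximal brush border and the Golgi, had 138, 170.0 and 184 in C-peptide cells, against 119 and 118 in untreated cells. The untreated arrays nearly coincided below the treated ones, at a difference of 0.41 ± 0.16 (95% interval 0.03 to 0.79; limma adjusted p = 0.409). In the values as deposited the groups overlapped, and the difference was 0.33 without C-peptide animal 3 after normalisation. Slc9a9 (NHE9), an exchanger of recycling endosomes, had the lowest difference of all 50 carriers. Its intensity was 60.2, 81.3 and 69.2 in C-peptide cells, against 129 and 139 in untreated cells. The groups lay far apart, with untreated cells 1.75-fold higher (log2 difference -0.80 ± 0.16, 95% interval -1.18 to -0.43; limma unadjusted p = 0.00125, adjusted p = 0.141). It kept an unadjusted p under 0.05 in all 15 alternatives, at differences of -0.93 to -0.56 and adjusted p values of 0.0317 to 0.800.

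The remaining exchangers had no unadjusted p under 0.05. Slc9a5, known from brain, was at 0.32 ± 0.15 and Slc9a2, an exchanger of gut and distal tubule, at 0.19 ± 0.15, both without overlap between groups. Slc9a4, of the stomach and the basolateral thick limb, was at 0.14 ± 0.20, and Slc9a7, of the trans-Golgi network, at -0.13 ± 0.18, and these overlapped.

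Among the 9 bicarbonate transporters, the values of Slc4a4 and those of 2 sodium-coupled relatives lay on opposite sides of 0. Slc4a4 (NBCe1), the basolateral exit of bicarbonate from proximal cells, had intensities of 3798, 2966 and 4242 in C-peptide cells, against 3112 and 2790.2 in untreated cells. C-peptide animals 1 and 3 were above both untreated arrays, and C-peptide animal 2 fell between them. Its difference was 0.30 ± 0.19 (95% interval -0.14 to 0.73; limma adjusted p = 0.596), with 0.19 without C-peptide animal 3 and 0.44 (limma unadjusted p = 0.0378) without C-peptide animal 2. Slc4a2 (AE2), a chloride-bicarbonate exchanger of many epithelia, had 201, 191 and 221 in C-peptide cells, against 206 and 185 in untreated cells, and the groups overlapped at a difference of 0.06 ± 0.14, which was -0.028 in the values as deposited.

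Slc4a5 (NBCe2), a further electrogenic sodium-bicarbonate cotransporter, had 43.8, 39.2 and 35.0 in C-peptide cells, against 57.9 and 53.1 in untreated cells. Slc4a7 (NBCn1), an electroneutral cotransporter of sodium and bicarbonate, had 66.9, 72.6 and 58.6 in C-peptide cells, against 86.2 and 91.8 in untreated cells. In both, the treated arrays were the 3 lowest. The differences were -0.37 ± 0.14 for Slc4a5 and -0.36 ± 0.15 for Slc4a7 (limma adjusted p = 0.404 and 0.418), and both probe sets were dimmer than the median probe set. Of the others, Slc4a3 (AE3), of heart and brain, was at 0.24 ± 0.15 without overlap. Slc4a11, best known from the corneal endothelium, was at 0.33 ± 0.26, Slc4a8, a sodium-driven chloride-bicarbonate exchanger, at -0.0041 ± 0.14 and Slc4a10, of neurons, at -0.21 ± 0.33, all with overlap.

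The 6 cation-chloride carriers split. Slc12a2 (NKCC1), which loads cells with sodium, potassium and chloride, had intensities of 201, 215 and 192 in C-peptide cells, against 264 and 257 in untreated cells. The groups were tight and did not overlap, at a difference of -0.34 ± 0.14 (95% interval -0.66 to -0.02; limma adjusted p = 0.418). With any 1 C-peptide array dropped, the limma unadjusted p was 0.0512 to 0.101, at differences of -0.38 to -0.30. Slc12a4 (KCC1), a potassium-chloride exporter found in most cells, had 100.2, 85.5 and 100.1 in C-peptide cells, against 152 and 119 in untreated cells. All treated arrays were lower, at -0.44 ± 0.16 (95% interval -0.82 to -0.06; limma adjusted p = 0.381), and the difference was -0.28 without untreated animal 1.

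Slc12a8, a member of the family with less settled cargo, had 302, 205 and 279 in C-peptide cells, against 187 and 168 in untreated cells. C-peptide animal 2 lay nearest to the untreated arrays without reaching them, at a difference of 0.51 ± 0.19 (95% interval 0.07 to 0.96; limma adjusted p = 0.388). Slc12a7 (KCC4), a basolateral potassium-chloride exporter, had 196, 194 and 207 in C-peptide cells, against 199.8 and 166 in untreated cells, with overlap and a difference of 0.12 ± 0.15. Slc12a9 was at 0.11 ± 0.13 without overlap, and Slc12a5 (KCC2), of neurons, at 0.43 ± 0.20 with overlap and a dim probe set. The excluded Slc12a3, the thiazide-sensitive cotransporter, was at 0.69 ± 0.23, and Slc12a1, the loop diuretic-sensitive one, at -0.15 ± 0.32.

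**Figure D3:**
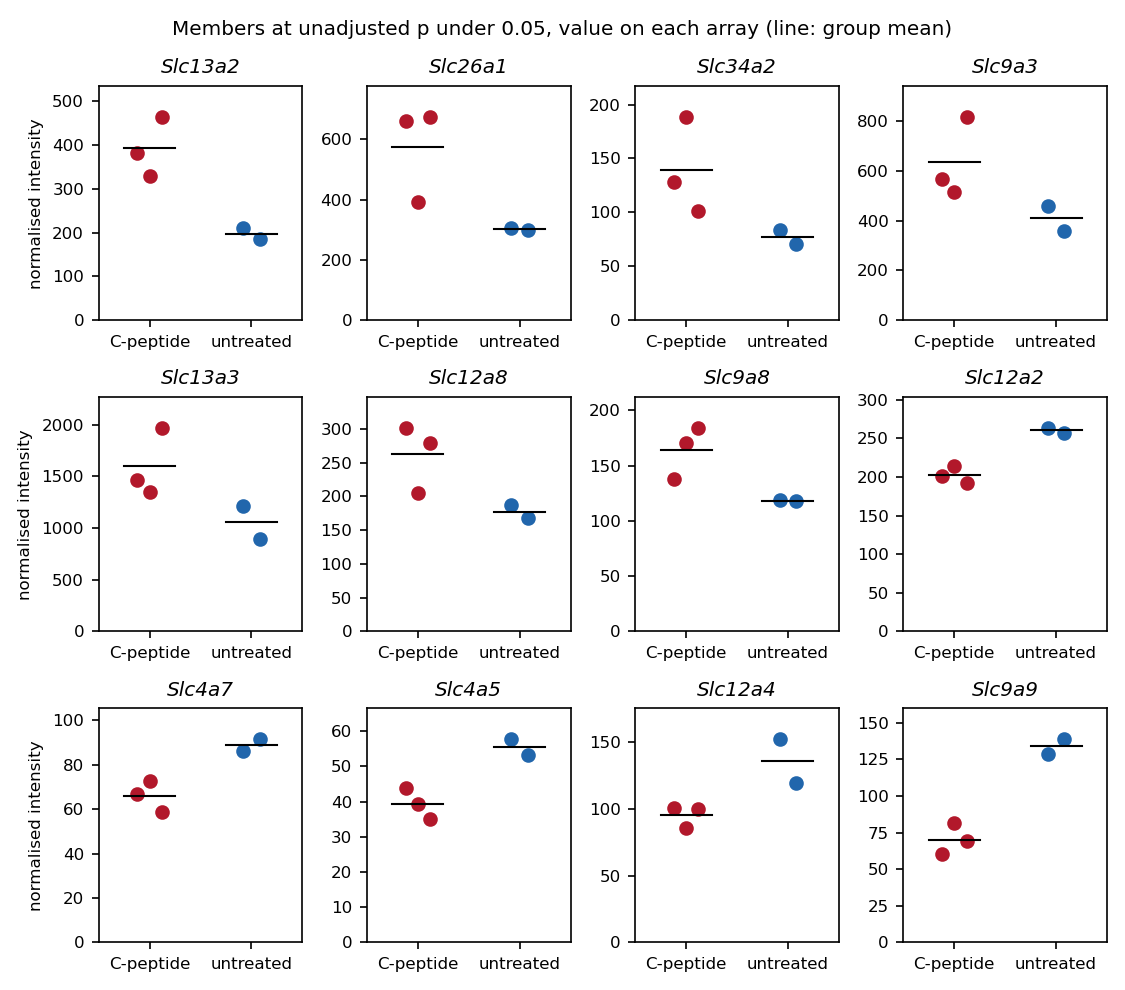
Normalised intensity on each array of the 12 carriers at unadjusted p under 0.05, C-peptide arrays in red on the left and untreated arrays in blue on the right of each panel, with a line at the group mean and axes from 0. The 7 panels from Slc13a2 to Slc9a8 have all C-peptide arrays above all untreated arrays, and the 5 from Slc12a2 to Slc9a9 have them below.

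The carriers Slc26a4, Slc26a7, Slc4a9 and Slc8a1, known from later nephron segments, varied widely between C-peptide animals. Slc26a4 (pendrin), the chloride-bicarbonate exchanger of type B intercalated cells in the collecting system, had intensities of 371, 994 and 594 in C-peptide cells, against 619 and 529.6 in untreated cells. Slc26a7, an anion carrier of acid-secreting intercalated cells, had 41.7, 144 and 87.2 in C-peptide cells, against 71.5 and 83.3 in untreated cells. Both were lowest in C-peptide animal 1 and highest in C-peptide animal 2, with both untreated arrays in between. The highest treated array was 2.61 times the lowest for Slc26a4 and 2.77 times for Slc26a7, on the intensity + 16 scale, beside a median of 1.33 over the 50 carriers. It was 1.71 times for Slc4a9 and 1.81 times for Slc8a1. Such a spread was not particular to these segments, with 2.40 for Slc4a10, 1.99 for Slc24a2, 1.80 for Slc4a11 and 1.74 for Slc34a2.

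Slc4a9 (AE4), a basolateral anion exchanger of type B intercalated cells, had 254, 439 and 446 in C-peptide cells, against 376 and 303 in untreated cells. Slc8a1 (NCX1), the sodium-calcium exchanger that returns calcium to the blood from distal tubule cells, had 267, 471 and 496 in C-peptide cells, against 288 and 283 in untreated cells. For both, C-peptide animal 1 lay below the untreated arrays and the other 2 treated animals above them. The excluded Slc4a1, the anion exchanger of red cells and of acid-secreting intercalated cells, had 372, 779 and 765 in C-peptide cells, against 764 and 555 in untreated cells, again lowest in C-peptide animal 1. The excluded Slc12a3, of the distal convoluted tubule, had another order, at 1335, 1795 and 1260.2 in C-peptide cells, against 1083 and 732 in untreated cells, without overlap. None of the 4 carriers named first had a limma unadjusted p under 0.05, and the differences were 0.07 ± 0.36 for Slc26a4, 0.08 ± 0.38 for Slc26a7, 0.12 ± 0.26 for Slc4a9 and 0.45 ± 0.26 for Slc8a1.

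The summed markers of these segments were lowest in C-peptide animal 1, but single markers differed in this. Collecting duct markers summed to 2642, 3872 and 3737 in C-peptide animals 1, 2 and 3, against 3414 and 2859.6 in untreated animals 1 and 2, with 6 of 9 above 0. Thick limb and distal tubule markers summed to 11778, 19948 and 16484 in the C-peptide group, against 14484 and 13138 in the untreated group, with 6 of 9 above 0. In both sums C-peptide animal 2 was the highest of the 5 arrays, as it was for Slc26a4 and Slc26a7. Of the 18 markers, 7 were lowest in C-peptide animal 1, 7 in untreated animal 2, 3 in untreated animal 1 and 1 in C-peptide animal 2. The part of these markers in the values of the later-segment carriers was not tested.

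**Figure D4:**
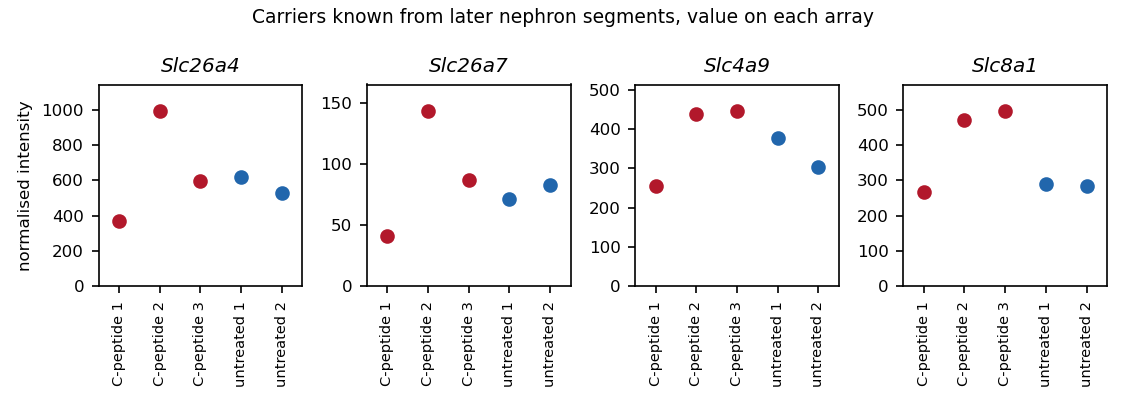
Normalised intensity of Slc26a4, Slc26a7, Slc4a9 and Slc8a1 on each array, C-peptide in red and untreated in blue, with axes from 0. C-peptide animal 1 is the lowest array in all 4 panels (371, 41.7, 254 and 267).

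The other sodium-calcium exchangers are known from outside the kidney tubule and had no unadjusted p under 0.05. Slc24a4, known from enamel and brain, was at 0.42 ± 0.19 without overlap between groups. Slc24a1, of rod photoreceptors, was at -0.01 ± 0.17, Slc24a2, of cones and neurons, at 0.10 ± 0.30, Slc24a3 at 0.12 ± 0.16 and Slc24a5, of pigment cells, at 0.06 ± 0.17. Slc8a2 and Slc8a3, of brain and muscle, were at 0.07 ± 0.16 and 0.09 ± 0.15. All of these except Slc24a4 overlapped, and 6 of the 8 probe sets of the family, all but Slc8a1 and Slc24a1, were dimmer than the median probe set.

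Brightness went with where the higher values lay. Of the 27 carriers brighter than the median probe set, 22 lay above 0, the median difference was 0.25 and 7 were higher and 3 lower at unadjusted p under 0.05. Of the 23 dimmer ones, 15 lay above 0 and the median was 0.07. None of them was higher and 2 were lower (8.70%), against 5.06% and 6.30% of all probe sets. Of the 14 proximal carriers, 13 were among the brighter ones, and 5 of the 7 higher carriers were proximal. Over all genes brighter than the median probe set, the median difference was 0.03, with 54.8% above 0, 7.52% higher and 9.42% lower at unadjusted p under 0.05. The lower share of the bright carriers (11.1%) was near that of these genes, and their higher share was 25.9%. Differences of dim probe sets are understated on this scale. Across arrays, the highest value of a carrier fell on C-peptide animal 3 in 21 of the 50 and the lowest on untreated animal 2 in 21 of the 50.

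**Figure D5:**
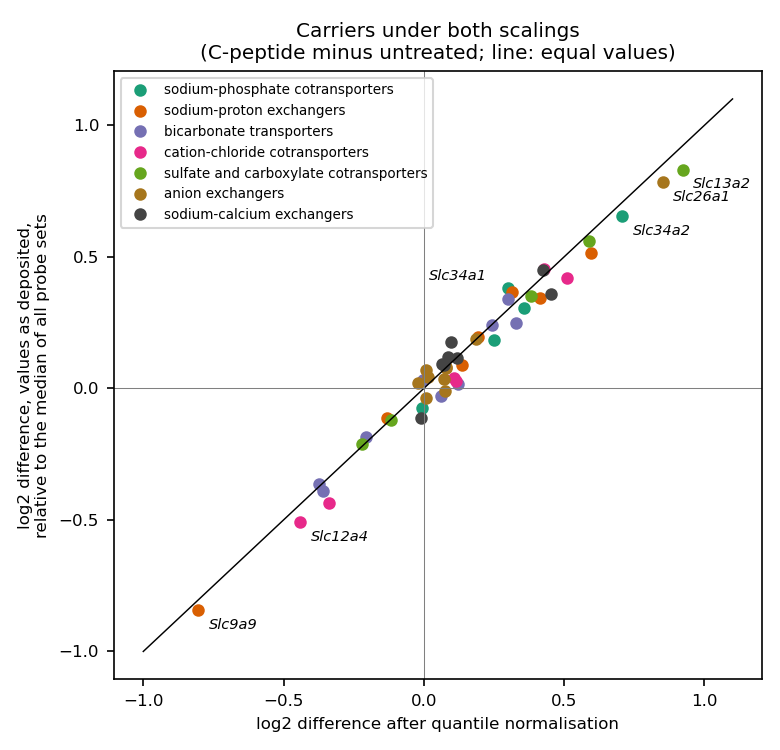
Log2 difference of each of the 50 carriers in the values as deposited, relative to the median of all probe sets, against that after quantile normalisation, both C-peptide minus untreated, with a line of equal values and colours by family. Slc13a2 (0.83 against 0.92) and Slc9a9 (-0.84 against -0.80) lie at the ends under both scalings.

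The enzymes and partners that work with the bicarbonate and proton carriers were on the higher side. Of 13 listed genes, 12 were measured and all 12 lay above 0, with a median difference of 0.23. None passed adjusted p 0.05, and 4 were higher at unadjusted p under 0.05, against 5.06% of all probe sets. The 12 proximal tubule markers lay on the same side, at a median of 0.53, and their part in these values was not tested. Slc38a3 (SNAT3), which brings in glutamine for ammonia production, had intensities of 459.7, 428 and 425 in C-peptide cells, against 271 and 179.6 in untreated cells, at 0.94 ± 0.19 (limma adjusted p = 0.146). Car4, the membrane-bound carbonic anhydrase of the brush border, had 519.7, 720.0 and 782, against 414 and 405 in untreated cells, at 0.68 ± 0.20. Car14, a further membrane carbonic anhydrase, was at 0.56 ± 0.18 and Car12 at 0.40 ± 0.16, while Car2, the cytosolic form, was at 0.26 ± 0.14. In Slc38a3, Car4, Car14, Car12 and Car2 the groups did not overlap.

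Genes that anchor the carriers or pass on hormone signals to them were mixed. Of the 17 measured, 11 lay above 0, with a median of 0.11, none past adjusted p 0.05, and 3 were higher and 1 lower at unadjusted p under 0.05, against 5.06% and 6.30% of all probe sets. Kl (klotho), the co-receptor for the phosphate-wasting hormone FGF23, had 1283, 1348 and 1653 in C-peptide cells, against 934 and 829 in untreated cells, at 0.68 ± 0.17 (limma adjusted p = 0.200). Pdzk1, a brush border scaffold that binds Slc34a1, was at 0.47 ± 0.18 and Fgfr4, an FGF receptor, at 0.46 ± 0.14. Nherf2, a scaffold that binds Slc9a3 and that endothelial cells and podocytes also hold, had 405, 810.2 and 503 in C-peptide cells, against 1536 and 1197 in untreated cells, at -1.28 ± 0.28 (limma adjusted p = 0.175). Those values stood beside endothelial sums of 8698 to 13545 on C-peptide arrays, against 20758 to 24512 on untreated arrays. Whether the endothelial shift took part in the values of Nherf2 was not tested. Nherf1, its relative that anchors Slc34a1 and Slc9a3 in the brush border, was at 0.15 ± 0.18 and Pth1r, the parathyroid hormone receptor, at 0.32 ± 0.18, both with overlap.

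The WNK and SPAK kinases set the activity of the Slc12a family by phosphorylation. Of 10 listed kinases, scaffolds and ubiquitin ligase subunits of this pathway, 7 were measured, and none had an unadjusted p under 0.05. The median difference was 0.01, with 4 above 0. The highest was Cab39l, a kinase scaffold, at 0.36 ± 0.17, and Wnk1 was at 0.01 ± 0.18, Wnk4 at -0.04 ± 0.16 and Stk39 (SPAK) at 0.12 ± 0.18.

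Upstream sequences are shown for Slc13a2, Slc26a1 and Slc9a3, which had high differences among the proximal carriers, for Slc9a9, which had the lowest, and for Slc34a1 as the landmark carrier of the segment. Each is the 250 bases before the gene start in RefSeq on rat build GRCr8, read on the strand of the gene, and 43 of the 50 carriers matched an entry. Capitals mark matches on either strand to 4 motifs. For HNF1, a factor of tubular epithelium, the letters searched were GTTAAT, and for HNF4, a second such factor, CAAAGTCCA. For the core promoter element bound by the TATA-binding protein they were TATANA, whose matches can overlap each other, and for the GC box bound by Sp1 they were GGGCGG. A match is a description of letters only.
Slc13a2 (chr10:63817185-63817434, minus strand): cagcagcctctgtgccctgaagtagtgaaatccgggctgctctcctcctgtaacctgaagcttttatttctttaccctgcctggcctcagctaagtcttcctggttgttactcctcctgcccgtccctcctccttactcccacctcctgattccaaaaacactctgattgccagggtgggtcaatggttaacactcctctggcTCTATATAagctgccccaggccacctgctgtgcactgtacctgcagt
Slc26a1 (chr14:1184721-1184970, plus strand): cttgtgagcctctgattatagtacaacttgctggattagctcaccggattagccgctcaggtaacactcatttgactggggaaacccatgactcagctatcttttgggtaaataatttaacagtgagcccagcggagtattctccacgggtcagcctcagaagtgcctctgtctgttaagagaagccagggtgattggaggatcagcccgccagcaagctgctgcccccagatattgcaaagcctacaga
Slc9a3 (chr1:30996003-30996252, minus strand): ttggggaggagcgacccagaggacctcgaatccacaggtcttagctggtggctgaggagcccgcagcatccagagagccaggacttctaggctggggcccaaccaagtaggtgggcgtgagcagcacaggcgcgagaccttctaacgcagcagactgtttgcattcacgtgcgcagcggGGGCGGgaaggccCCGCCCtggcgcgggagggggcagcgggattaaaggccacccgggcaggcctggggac
Slc34a1 (chr17:9238984-9239233, minus strand): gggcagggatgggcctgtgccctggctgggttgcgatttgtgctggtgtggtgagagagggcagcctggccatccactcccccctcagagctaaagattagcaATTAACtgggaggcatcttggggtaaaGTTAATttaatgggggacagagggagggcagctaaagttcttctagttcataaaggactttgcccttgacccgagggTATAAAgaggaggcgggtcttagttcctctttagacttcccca
Slc9a9 (chr8:104112285-104112534, plus strand): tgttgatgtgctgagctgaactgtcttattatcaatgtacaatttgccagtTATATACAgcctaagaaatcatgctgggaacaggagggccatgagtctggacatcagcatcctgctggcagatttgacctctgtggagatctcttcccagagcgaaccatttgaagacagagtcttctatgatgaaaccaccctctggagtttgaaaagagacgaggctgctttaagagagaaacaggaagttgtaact

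GTTAAT was found in 3 of the 43 carrier windows (6.98%), against 6.45% of the 33469 windows in the table, and those were Slc26a3, Slc34a1 and Slc8a1. Slc34a1 held it at 2 places, starting 147 and 120 bases before the gene start, and a TATANA match 43 bases before it. TATANA was in 10 of the 43 (23.3%), against 24.2% of all windows, with Slc13a2 and Slc34a2 holding it within 47 bases of the start. GGGCGG was in 16 of the 43 (37.2%), against 30.5%, with matches 71 and 58 bases before the start of Slc9a3. CAAAGTCCA was in 0 of the 43, against 0.338% of all windows, and the window of Slc26a1 held none of the 4 motifs.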

How the data were processed

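The authors deposited linear intensities per probe set. The submitters' processing notes name PLIER and Affymetrix Expression Console 1.1; background correction, scaling and filters are not stated there. Array medians differed, so intensities were quantile normalised between arrays and taken to log2(value + 16). The 3 C-peptide and 2 untreated arrays entered a limma 3.58.1 fit (R 4.3.3; lmFit, eBayes) on group alone. Tests were two-sided, and p-values were adjusted by Benjamini and Hochberg's method over the 29215 probe sets. The p-values of single carriers are from this fit, and the number of arrays limits the precision. A single symbol named 15310 probe sets through the platform annotation, 323 had several and 13582 none, and the gene IDs of all 50 carriers were in the RefSeq table (GRCr8). Members and lists were chosen with earlier results of these data known. Values on each array are given for carriers at unadjusted p under 0.05, or without overlap and at least 0.5 apart on the log2 scale, and for those known from the proximal tubule; for other genes, named after their values were seen, chiefly differences are given.

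The fit was tested on simulated data with known changes. Alternatives were the values as deposited, centred arrays, pseudocounts of 1 and 64, dim or unnamed probe sets left out, a trended and robust prior, array weights, the animal number as a block, averaging all probe sets of a gene, and each array left out in turn.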

Additional observations from a re-analysis of the deposited data

How the results depend on the processing

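Over all probe sets, 0 passed adjusted p 0.05 in limma (1477 higher and 1840 lower at unadjusted p under 0.05), also with array weights, with the replicate block and without any single array. The count was 52 in the values as deposited, 29 with centred arrays, 1 at a pseudocount of 1, 118 at a pseudocount of 64, 393 without dim probe sets, 329 over single-symbol probe sets and 207 with a trended and robust prior. Among the carriers, 0 passed except for 2, Slc13a2 and Slc9a9, without dim probe sets (adjusted p = 0.0296 and 0.0317), over single-symbol probe sets (0.0275 and 0.0327) and after averaging the probe sets of each gene (0.0268 and 0.0320), all of which test fewer features. Each carrier had 1 probe set, so that averaging changed no difference. The higher carriers at unadjusted p under 0.05, 7 in all, were 2 in the values as deposited, 4 with the replicate block and 3 to 10 with a C-peptide array left out. The 5 lower carriers were 2 in the values as deposited, 3 with centred arrays and 3 without dim probe sets (Slc4a5 and Slc4a7 are dim). They were 2 with the replicate block and 2 or 3 with a C-peptide array left out. The block gives C-peptide animal 3 no partner, so its differences equal those without that animal. Deviations from the group means correlated at -0.03 for number 1 and 0.01 for number 2. The 2 untreated arrays deviate by mirror-image amounts, so these values cannot decide whether animal numbers pair the arrays. The labels do not state it. The carriers' median difference of 0.10 was 0.25 without dim probe sets, which is the median of the 27 brighter carriers alone. With an array left out the median was 0.093 to 0.18. The cause of the other shifts was not tested. Of the 21 carriers named by the rule, 4 that lay near 0 or among overlapping groups changed sign. Slc4a2 was at -0.028 in the values as deposited and ranged from -0.014 to 0.13 with an array left out. Slc26a6 was at -0.15 with the replicate block and ranged from -0.15 to 0.22. Slc20a1 ranged from -0.12 to 0.11 and Slc12a7 from -0.0065 to 0.24 with an array left out. The other 17 kept their sign in each alternative that held them. With an untreated array left out, the lone untreated array is assumed to vary like the C-peptide arrays. With 3 arrays against 2, the spread limits what can be called, and dim probe sets have understated differences.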
